A study of Rattus norvegicus with 6 samples.

Results

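Cardiac miR-22 and miR-378a were examined as mature strands in the left ventricle of rats with and without a myocardial infarction (MI). The strands were selected by the names the array gives them: miR-22-3p, miR-22-5p, miR-378a-3p and miR-378a-5p. Of these 4 strands, 3 had spots on the arrays among 758 miRNAs in all, and they were read by 5 of 1806 probes; miR-378a-3p was not analysed here. MiR-378b, which the array carries under its own name, is set beside them as the other measured miR-378 sequence. It was chosen after its values were seen.

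The samples were 6 pieces of left ventricular myocardium from male rats aged 8 weeks, 1 single-colour miRNA microarray each. In the MI group (n = 3) the left coronary artery was ligated and tissue was taken 24 h later from animals in which the operation had worked by electrocardiogram. In the control group (n = 3) the chest was opened in the same way and the artery was not ligated. The labels give the controls a time of 0 h, so ligation and time after surgery cannot be told apart. They give no strain, name neither infarct, border nor remote tissue, and do not tie samples to animals. The p-values therefore reflect how far these samples differ among themselves, which may be partly technical.

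A miRNA gene is transcribed into a hairpin that is cut to a short duplex, and either strand (5p or 3p) can be loaded into the silencing complex, where bases 2 to 8, the seed, pair with target messages. MiR-22 is enriched in heart and skeletal muscle; in mice its 3p strand is induced by hypertrophic stress, and its loss blunts cardiac hypertrophy. MiR-378a is made from an intron of Ppargc1b, the gene of a coactivator of mitochondrial and lipid metabolism. Its 3p strand restrains oxidative metabolism in mice and hypertrophic growth signalling in cultured rat cardiomyocytes, and its 5p strand represses regulators of oxidative metabolism in human breast cancer cells.

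The mature sequences are shown because each probe reads 1 strand, and the strands of a gene have different seeds and hence different targets. They were taken from RefSeq (build GRCr8), 5′ to 3′, with the seed in capitals.
rno-miR-22-3p: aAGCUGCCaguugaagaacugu
rno-miR-22-5p: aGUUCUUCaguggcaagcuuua
rno-miR-378a-3p: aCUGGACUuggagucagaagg
rno-miR-378a-5p: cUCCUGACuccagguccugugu
None of the 4 seeds was shared with any other miRNA of the array among the 685 of 758 array names that had a mature sequence in this table. MiR-378b was not among the 685, so its seed was not compared.

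Mir22 lies at chr10:60805331-60805425 on the plus strand of GRCr8, between Wdr81 and Tlcd2. Its hairpin is shown with both mature strands in capitals, because the ratio of these strands was tested.
Mir22 hairpin: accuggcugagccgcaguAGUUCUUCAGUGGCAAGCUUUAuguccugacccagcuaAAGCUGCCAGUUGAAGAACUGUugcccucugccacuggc
MiR-22-5p took positions 19 to 40 and miR-22-3p positions 57 to 78 of the 95 bases, counted from the hairpin's 5′ end. Set against each other without gaps, with G-U pairs allowed, they paired at up to 17 bases, 11 of them in a row.

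The gene of miR-378a, Mir378, lies within the span of Ppargc1b, and miR-378a-5p maps to chr18:57128962-57128983 on the minus strand of GRCr8. Another miRNA gene, Mir3557, covers the same place on the plus strand. Its 3p strand is shown because all 22 of its bases, in capitals, are the exact complement of miR-378a-5p.
rno-miR-3557-3p: ACACAGGACCUGGAGUCAGGAG
The 5p strand of Mir3557 was likewise complementary to miR-378a-3p over 21 bases in a row.

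None of the 3 measured strands differed detectably between infarcted and control ventricle. The log2 fold change (MI minus control) was 0.011 for miR-22-3p, 0.0058 for miR-22-5p and 0.0042 for miR-378a-5p, and for each of them the values of the groups overlapped. For miR-378b, chosen after its values were seen, all 3 MI arrays lay below all 3 control arrays, at 0.851 of the control level. Such a separation was found for 44 of all 449 tested miRNAs (9.8%). The difference of miR-378b did not pass the threshold over all miRNAs. Values are log2 of the signal, with arrays brought to a common 75th percentile of their detected probes and the probes of a miRNA summed. All 3 strands and miR-378b were well above background on all 6 arrays.

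For miR-22-3p, the strand usually named as the active one in heart, control replicates 1 to 3 had log2 signals of 16.39, 16.42 and 16.24. In the same order of replicates, the MI arrays had 16.37, 16.36 and 16.36. The MI values lay inside the range of the controls and close together, while control replicate 3 was the lowest of the 6. The control mean was 16.35 ± 0.095 (SD, n = 3) and the MI mean 16.36 ± 0.0060 (SD, n = 3). Their difference was 0.011 ± 0.074 (SE; limma adjusted p = 0.96), and p was 1 in an exact permutation test, two-sided here and below, where 0.1 is the smallest p that 3 against 3 samples allow. The 95% interval from limma, as a relative difference from the control level, ran from -10.9% to 13.96%. Changes inside it could not be told from no change. The interval is not adjusted for the number of miRNAs tested and is not the smallest change that could pass the threshold.

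MiR-22-5p, the other strand of the hairpin, had log2 signals of 10.41, 10.45 and 10.22 in the controls and 10.30, 10.42 and 10.38 after MI. Control replicate 3 was again the lowest array, and the MI values lay inside the range of the controls. The means were 10.36 ± 0.12 (SD, n = 3) and 10.37 ± 0.060 (SD, n = 3). The difference was 0.0058 ± 0.086 (SE; limma adjusted p = 0.975), with a 95% interval of -13.0% to 15.9%. In the exact permutation test p was 0.9.

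MiR-378a-5p had log2 signals of 9.16, 9.17 and 9.10 in the controls and of 9.17, 9.07 and 9.19 after MI. The groups overlapped across their whole range: MI replicate 3 was the highest array and MI replicate 2 the lowest. The means were 9.14 ± 0.039 (SD, n = 3) and 9.15 ± 0.066 (SD, n = 3). Their difference was 0.0042 ± 0.069 (SE; limma adjusted p = 0.977), with a 95% interval of -10.6% to 12.6%, and p was 0.8 in the exact permutation test.

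MiR-378b had log2 signals of 12.08, 12.11 and 12.02 in the controls and 11.88, 11.85 and 11.77 after MI. The lowest control lay above the highest MI array, and p was 0.1 in the exact permutation test, the smallest that 3 against 3 samples allow. MiR-378b was chosen after these values were seen, so its p-values, interval and signs only describe them. The difference was -0.23 ± 0.069 (SE; limma adjusted p = 0.212; unadjusted p = 0.0132), a relative difference from the control level of -14.9% with a 95% interval of -24.1% to -4.55%. It was below 0 in all 24 processing alternatives, with an adjusted p in limma from 0.0693 to 0.646, so it passed the threshold in none of them. Mature sequences of the miR-378 family differ by few bases, so signal on the miR-378b probes is given under the array's name and may not be specific to that sequence. Whether its probes also read miR-378a-3p was not tested.

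**Figure D1:**
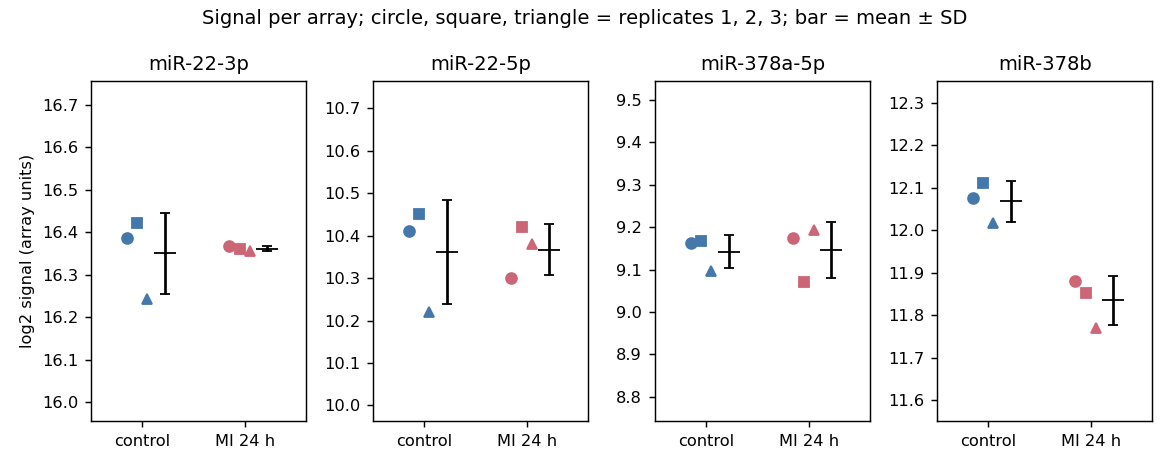
Log2 signal of miR-22-3p, miR-22-5p, miR-378a-5p and miR-378b on each array (vertical axis, the same span in each panel), for controls and for MI at 24 h; circles, squares and triangles are replicates 1, 2 and 3, and bars are the mean ± SD of 3 arrays. The groups overlap for both miR-22 strands and miR-378a-5p and are separate for miR-378b, where controls lie between 12.02 and 12.11 and MI arrays between 11.77 and 11.88.

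These counts were read against all 449 miRNAs tested, those detected on every array of at least 1 group. In limma with Benjamini-Hochberg adjustment, 11 of the 449 (2.45%) passed an adjusted p of 0.05, 8 higher (1.78%) and 3 lower (0.668%) after MI, and 0 of the 3 strands did. The split was 5 and 5 with the 75th percentile over all probes or with median scaling, and 6 and 1 with no scaling. All 3 lower calls were lost in limma without control replicate 1, 2 or 3 (5 higher and 0 lower each time) and without MI replicate 1 (8 and 0) or 2 (4 and 0), where 37 to 69 miRNAs had an unadjusted p under 0.05; without MI replicate 3 it was 9 and 1. At an unadjusted p under 0.05 there were 61 of 449 miRNAs (13.6%) and again 0 of the 3 strands. Groups did not overlap for 93 miRNAs (20.7%), 44 of them lower after MI (9.8%), against 0 of the 3 strands; miR-378b was 1 of those 44. The median log2 fold change of all tested miRNAs was 0.016 and the median of their absolute values 0.11. Smaller absolute differences than that of miR-22-3p were found for 22 miRNAs, than that of miR-22-5p for 12, and than that of miR-378a-5p for 7. The smallest absolute difference that passed the threshold was 0.38, which belongs to another miRNA with its own spread. It lay outside the unadjusted 95% intervals of all 3 strands under the reported scaling. It does not set the smallest change that could have passed for these strands.

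**Figure D2:**
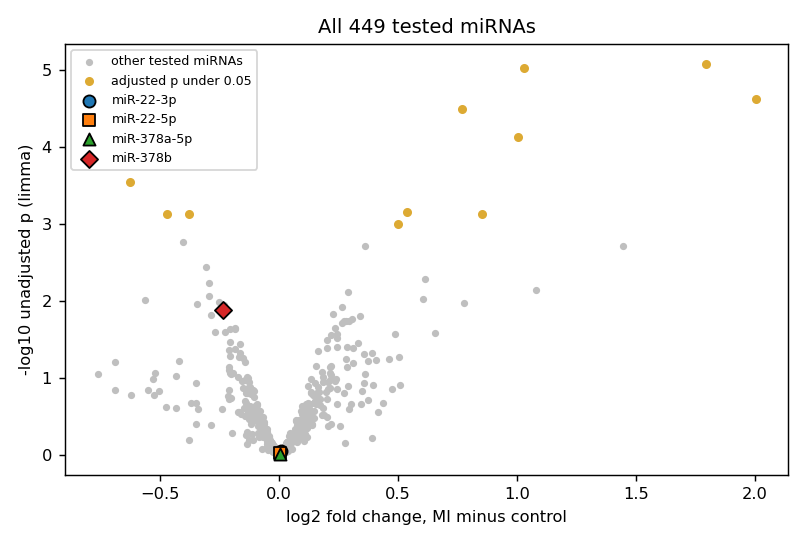
Log2 fold change (MI minus control, horizontal axis) against -log10 of the unadjusted p from limma (vertical axis) for all 449 tested miRNAs; the 11 past an adjusted p of 0.05 are yellow. Both miR-22 strands and miR-378a-5p lie on top of each other at the foot of the plot, between 0.0042 and 0.011, and miR-378b lies at -0.23.

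The near-zero differences of miR-22-3p and miR-378a-5p did not depend on a single probe, while that of miR-22-5p rests on its only probe. MiR-22-3p was read by probes A_26_P00001212 and A_26_P00001213, with log2 fold changes of -0.00044 ± 0.077 and 0.019 ± 0.075 (SE). For miR-378a-5p, probes A_26_P00002164 and A_26_P00002165 gave 0.0079 ± 0.071 and 0.0011 ± 0.071. MiR-22-5p had 1 probe, A_26_P00002016, spotted 16 times per array where the other probes had 8 spots. Both probes of miR-378b gave similar differences, -0.24 ± 0.072 and -0.23 ± 0.071 (limma adjusted p over 926 probes = 0.217 for each). Across the 926 probes tested, 19 (2.05%) passed the adjusted threshold, none of these 7 among them. Probes of a miRNA share its RNA and are not replicates.

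Spots of a probe on the same array differed little. After outlier spots were left out, the coefficient of variation between spots lay between 0.343% and 3.70% for the 5 probes. The scaled signal varied between control arrays by 6.45% for miR-22-3p, 8.30% for miR-22-5p and 2.68% for miR-378a-5p, and between MI arrays by 0.417%, 4.14% and 4.50%. The raw spots were at least 1650 times the local background for miR-22-3p, 69.7 times for miR-22-5p and 15.9 times for miR-378a-5p, and no spot was saturated.

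**Figure D3:**
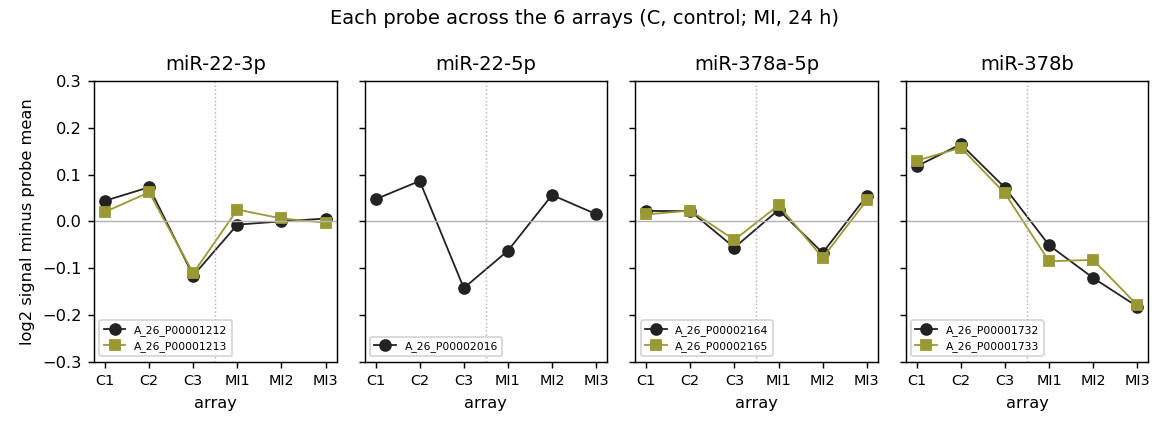
Log2 signal of each probe minus that probe's mean over the 6 arrays (vertical axis), by array (C1 to C3, control replicates; MI1 to MI3, MI replicates). Probes of a miRNA follow each other closely; control replicate 3 is the lowest array for all probes of miR-22, and both probes of miR-378b are above 0 on all control arrays and below 0 on all MI arrays.

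The balance of the miR-22 strands was also compared, because a change in strand loading or decay would alter it without a change in the gene's output. Levels of different probes cannot be set against each other, so only the change of the ratio between groups is read. The log2 ratio of miR-22-3p over miR-22-5p was 5.98, 5.97 and 6.02 in the controls and 6.07, 5.94 and 5.98 after MI. These ranges overlapped, with means of 5.99 ± 0.028 (SD, n = 3) and 5.995 ± 0.065 (SD, n = 3). The change was 0.0053 ± 0.057 (SE; limma adjusted p over 114 precursors with both strands tested = 0.972), with a 95% interval of -0.14 to 0.15. Only 3 of the 114 precursors had a smaller absolute change, and the median absolute change over all of them was 0.12. None passed the adjusted threshold in limma (0%), and 17 (14.9%) had an unadjusted p under 0.05. For miR-378a no strand ratio was computed.

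Array-to-array profiles were compared by the root mean square difference between log2 values, each centred on the miRNA's own mean over the 6 arrays. MiR-22-3p and miR-22-5p differed by 0.0411, which made miR-22-3p the 3rd closest of 448 other miRNAs to miR-22-5p and miR-22-5p the 6th closest to miR-22-3p. Closest to miR-22-3p were let-7f-5p (0.0193), of the let-7 family, miR-1b (0.0323), of the muscle miR-1 family, and miR-133b-3p (0.0368), a muscle miRNA. The median over all others was 0.131. Let-7f-5p, miR-1b and miR-133b-3p each had their lowest value in control replicate 3, as miR-22-3p did. A difference of this kind is small between any miRNAs that vary little, and shared regulation was not tested. Closest to miR-22-5p were miR-509-5p (0.0295) and miR-3068-5p (0.0410), and closest to miR-378a-5p were miR-6216 (0.0288), miR-423-3p (0.0431) and miR-2985 (0.0437). MiR-378b stood at a difference of 0.133 from miR-378a-5p, 238th of 448.

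Neighbouring miRNA genes were read as a check of the surrounding loci. MiR-3557-3p, the exact complement of miR-378a-5p, was well above background on all 6 arrays, with log2 signals of 6.14, 6.06 and 6.21 in the controls and 6.18, 6.08 and 6.33 after MI. Its values overlapped between the groups, with a difference of 0.060 ± 0.089 (SE; limma adjusted p = 0.796). MiR-3557-5p, the complement of miR-378a-3p, was well above background on 0 of 6 arrays. On the other side of Mir378 the next miRNA gene is Mir145, a miRNA of smooth muscle, whose 5p and 3p strands stood at -0.079 ± 0.094 and -0.20 ± 0.13. The miRNA genes on either side of Mir22 gave 0.066 ± 0.10 for miR-6326 and -0.10 ± 0.067 for miR-423-5p. MiR-423-3p, which shares its name with miR-423-5p, stood at 0.017 and was not counted among the neighbours. None of the 5 counted strands passed the threshold in limma, where 11 of all 449 miRNAs (2.45%) did.

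Other miRNAs tied to cardiac hypertrophy formed a list of 12, all tested. This list and the metabolism list were chosen with earlier results of these data known, so their counts only describe these samples. At the adjusted threshold 2 of the 12 were higher and 0 lower, where 8 of all 449 (1.78%) were higher and 3 (0.668%) lower. MiR-21-5p, induced in injured heart, rose by 1.03 ± 0.084 (limma adjusted p = 0.00209), and miR-132-3p, which drives cardiomyocyte growth in mice, rose by 0.85 ± 0.14 (limma adjusted p = 0.0332). MiR-208a-3p, made from an intron of the alpha myosin heavy chain gene, had a difference of -0.21 ± 0.083, and miR-9a-5p one of -0.52 ± 0.26. The list's median was -0.052, and 9 of 12 members lay below 0, where 203 of all 449 (45.2%) did. Counts below 0 hold for the reported scaling, since the median of all tested miRNAs moved with the scaling. Of 8 miRNAs tied to lipid, insulin or mitochondrial metabolism, 0 passed the threshold, and 1 had an unadjusted p under 0.05, where 61 of all 449 (13.6%) did; the list median was -0.077. That member was miR-181c-5p, which acts on a mitochondrial message in rat heart, at -0.30 ± 0.068 (limma adjusted p = 0.107), with controls between 10.58 and 10.64 and MI arrays between 10.28 and 10.39. MiR-210-3p, tied to low oxygen and mitochondria, stood at -0.20 ± 0.10, miR-338-3p at -0.35 ± 0.25 and miR-122-5p, a liver miRNA, at 0.29 ± 0.23.

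Tissue identity was read from marker miRNAs. All 7 cardiomyocyte markers were well above background on all 6 arrays, and their summed log2 level ranged from 18.51 to 18.75 in controls and from 18.58 to 18.66 after MI. The same held for all 6 leukocyte markers (13.94 to 14.12 against 14.05 to 14.49), all 3 erythroid markers (14.18 to 14.69 against 14.51 to 15.00), both endothelial markers (16.22 to 16.42 against 16.18 to 16.19) and all 4 of smooth muscle and fibroblasts (15.64 to 15.96 against 15.65 to 15.76). No marker was at background, and each sum follows its brightest members most. In limma 0 of these 22 passed the threshold, where 11 of all 449 (2.45%) did. At an unadjusted p under 0.05 were 2 cardiomyocyte markers and 1 leukocyte marker, where 13.6% of all tested miRNAs were. The cardiomyocyte markers were miR-133a-5p, at -0.40 ± 0.078 (SE, limma adjusted p = 0.0619), and miR-208a-3p, at -0.21 ± 0.083 (SE, limma adjusted p = 0.335). Of the 7 cardiomyocyte markers 5 lay below 0 under the reported scaling, where 45.2% of all tested miRNAs did. MiR-1-3p, miR-133a-3p, miR-133b-3p, miR-208a-3p and miR-499-5p are in both this list and the hypertrophy list. The counts below 0 of these lists are therefore not separate observations. The leukocyte marker was miR-223-3p, abundant in myeloid cells, at 1.45 ± 0.29 (SE; limma adjusted p = 0.0619). All MI arrays lay below all controls for miR-150-5p, a lymphocyte marker, with a difference of -0.21 ± 0.087 (SE; limma adjusted p = 0.373). The groups of miR-342-3p also lay apart in that direction, by -0.17 ± 0.070 (SE, limma adjusted p = 0.373). The same held for miR-133a-5p, miR-208a-3p and the endothelial marker miR-126a-3p. Among all 449 tested miRNAs, 44 (9.8%) were lower after MI without overlap. The part of a shifting cell mix in the level of any strand was not tested, and in whole tissue fewer cells of a type and less RNA per cell cannot be told apart.

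Arrays carry header codes of 2 kinds: all controls and MI replicate 1 have code 1, and MI replicates 2 and 3 have code 2. With the code as a block, the log2 fold change was 0.018 for miR-22-3p, -0.059 for miR-22-5p and 0.032 for miR-378a-5p, and the 4 arrays of code 1 alone give the same values by construction. Both fits set a single MI array, replicate 1, against the 3 controls. In the fit with the block the spread also comes from MI replicates 2 and 3, and in code 1 alone it comes from the controls only, with the same spread assumed for MI replicate 1. MiR-378b stood at -0.19 there, with a 95% interval of -0.45 to 0.071 in the fit with the block. Since code 2 covers no control, no value could be had within it. The header of control replicate 3 has a scan identifier that differs from the one shared by all other arrays. What a differing identifier stands for is not given. Without this array, the differences were -0.043 for miR-22-3p, -0.064 for miR-22-5p and -0.018 for miR-378a-5p, and that of miR-378b was -0.26. Control replicate 3 was the lowest control for 182 of the 449 tested miRNAs (40.5%). Whether its identifier bears on the low miR-22 values was not tested.

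The signs of the 3 strands' differences turned with the scaling, and no direction is given for them. Over the other scalings they lay between -0.081 and 0.022 for miR-22-3p, between -0.086 and 0.015 for miR-22-5p and between -0.088 and -0.051 for miR-378a-5p. The lowest and highest bounds of the 95% intervals over those scalings were -18.9% and 13.8% for miR-22-3p, -21.4% and 16.96% for miR-22-5p, and -17.8% and 11.2% for miR-378a-5p. In the authors' processed values miR-22-3p had the same log2 value, 15.34, on all 6 arrays. MiR-22-5p there was 10.43, 10.47 and 10.17 in controls and 10.35, 10.35 and 10.32 after MI, and miR-378a-5p was 8.17, 8.16 and 8.08 against 8.23, 8.08 and 8.17. MiR-378b there was 11.20, 11.07 and 10.96 against 10.90, 10.90 and 10.65, also without overlap.

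**Figure D4:**
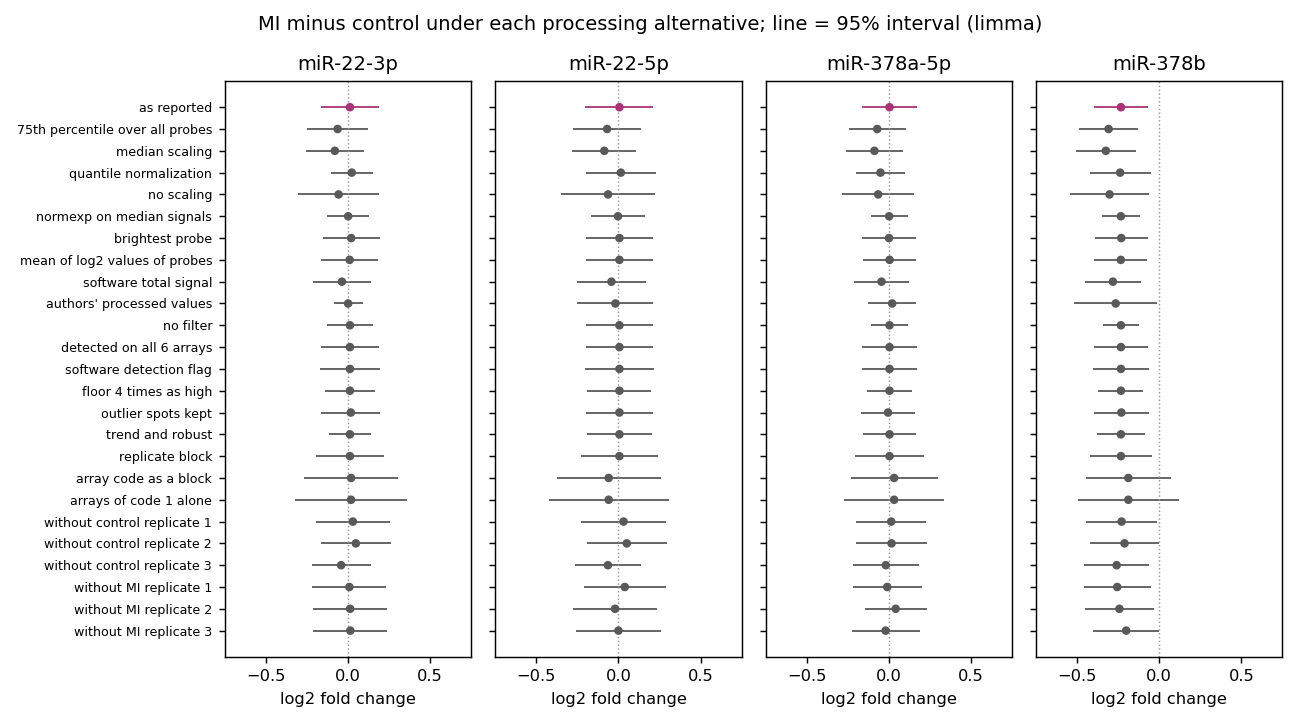
Log2 fold change (MI minus control, horizontal axis) under the reported processing (top) and each of 24 alternatives, with 95% intervals from limma, for miR-22-3p, miR-22-5p, miR-378a-5p and miR-378b. The intervals of both miR-22 strands and miR-378a-5p span 0 in every row, and those of miR-378b span 0 with the array code as a block and in the arrays of code 1 alone.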

How the data were processed

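MicroRNAs were measured in 6 ventricle samples, grouped by the time in their titles. The submitters' processing notes name Agilent Feature Extraction 11.0.1.1. Per the file headers, each spot has a linear, background-subtracted intensity, the array design is annotated on build rn4, and other deposited columns are flags of 0 or 1. The authors also deposited a table of log2 values with the same median (3.95) and upper quartile (7.04) on every array; how it was normalized is not given in the sources used here. A value that recurs on all arrays of that table can follow from a rank that did not change.

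Outlier spots (8.32% to 9.63% per array) were left out and spots averaged per probe. Detection of a probe required more than 50% of its spots to be flagged well above background. The 75th percentile of probes detected on every array (469.2 to 543.3 units) was used to scale the arrays, probes were summed per miRNA, and a floor of 5.14 units was set before log2. The number of arrays limits the precision. MI was set against control in limma 3.58.1 (R 4.3.3; 4 residual and 2.52 prior degrees of freedom) with Benjamini-Hochberg adjustment over 449 miRNAs. Strand ratios and probes were fitted likewise over their own tables. The fit was tested on simulated data. The strands, the hypertrophy, metabolism and cell type lists and the alternatives were chosen with earlier results of these data known. Named beside the strands were miRNAs with a shared seed, the 3 closest profiles of each strand, mature strands of the nearest miRNA genes, and up to 4 members of the hypertrophy and metabolism lists by smallest p. RefSeq tables of GRCr8 gave sequences, with their coordinates, and gene order; no coordinate was converted between builds.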

Additional observations from a re-analysis of the deposited data

How the results depend on the processing

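All 3 strands stayed far from the threshold in all 24 alternatives (limma adjusted p at least 0.565 for miR-22-3p, 0.577 for miR-22-5p and 0.538 for miR-378a-5p), and so did the miR-22 strand ratio (at least 0.749). Their signs were not stable. In the order miR-22-3p, miR-22-5p, miR-378a-5p, the log2 fold changes were -0.064, -0.069 and -0.071 with the 75th percentile over all probes, -0.081, -0.086 and -0.088 with median scaling, -0.058, -0.063 and -0.065 with no scaling, and -0.038, -0.043 and -0.044 in the software total signal. The median of all tested miRNAs moved with them, to -0.059, -0.076, -0.053 and -0.032. Single reversals were those of miR-378a-5p with quantile normalization (-0.051) and with outlier spots kept (-0.0051), and of miR-22-5p with normexp (-0.0031), in the authors' processed values (-0.019), with a block for the array code and in code 1 alone (-0.059 for both). Leaving out 1 sample at a time gave -0.043 to 0.047 for miR-22-3p, -0.064 to 0.051 for miR-22-5p, -0.019 to 0.042 for miR-378a-5p and -0.031 to 0.033 for the strand ratio. Scaling each array by a factor shifts all miRNAs above the floor alike, by construction. The cause of the other reversals was not tested.

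MiRNAs past the threshold numbered 11, and 7 with no scaling, 5 with no filter (758 tested), 6 with a floor 4 times as high, 3 with the array code as a block and 4 in code 1 alone. Without single samples they numbered 4 to 10, with 5 without control replicate 1, 2 or 3 and 4 without MI replicate 2. Same-numbered samples did not deviate together (correlations of 0.116, -0.0362 and 0.113 over 449 miRNAs), and 0 of 6 arrays correlated best with their own number. With the replicate number as a block 3 miRNAs passed in limma, 3 higher and 0 lower (62 at an unadjusted p under 0.05), and the 3 strands kept their values. Signal over local background was lowest for miR-378a-5p, and the number of arrays limits all intervals.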
